A study of Mus musculus with 4 samples.

Results

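The 7 genes described here, Ttn, Neb, Myom1, Myom2, Myom3, Obsl1 and Cmya5, encode the giant proteins of the sarcomere and the proteins of its M-band. They were taken by symbol from 32868 gene names, each was listed in 1 row only, and all 7 were among the 10690 genes tested. RNA came from C57BL/6 mice at postnatal day 21, from the tibialis anterior, a mostly fast-twitch muscle at the front of the shin. The Het group (Nf1flox/+/Myf5+) carried 1 floxed allele of Nf1, the gene for the Ras inactivator neurofibromin, and the Nf1-KO group (Nf1flox/flox/Myf5+) carried 2. Both groups carried Myf5+, which in crosses of this kind stands for a Cre recombinase expressed from the Myf5 locus in muscle precursors, so the controls also had a floxed allele and the driver. There were 2 libraries per group. No label ties them to separate animals, so p-values measure the spread between these libraries, which may be technical.

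The sarcomere is the contractile unit of the myofibre. Titin, the product of Ttn, runs from the Z-disc to the M-band and acts as a molecular spring, while nebulin, the product of Neb, lies along the thin filament and sets much of its length. At the M-band in the middle of the sarcomere, the myomesins Myom1, Myom2 and Myom3 link neighbouring thick filaments, and Obsl1 binds both titin and myomesin. Cmya5 encodes myospryn, a large protein at the edge of the sarcomere that binds desmin and dysbindin. The myomesin isoforms are known to differ between fibre types, with Myom2 typical of fast fibres and Myom3 of intermediate ones.

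Muscle identity and the targeted gene were checked first. The 6 myofibre markers (Acta1, Ckm, Myh4, Myh1, Tnnt3, Mb) summed to 46032 and 46220 RPKM (reads scaled to gene length and library depth) in Het and to 41037 and 40663 RPKM in Nf1-KO, with 2 of the 6 called higher and 4 lower. Of 4 heart muscle markers, Myl7 was listed at 0 in all 4 libraries, Nppa stayed below 1 RPKM, and the 4 summed to 5.92 to 6.41 RPKM in Het and 9.21 to 9.30 RPKM in Nf1-KO. Some marker lists of other cells were higher in Nf1-KO: the 5 immune markers summed to 8.92 to 9.08 RPKM in Het and 27.9 to 28.1 RPKM in Nf1-KO, the 4 Schwann cell markers to 9.5 to 9.68 and 22.1 to 23.5 RPKM, the 4 fibroblast markers to 70.2 to 72.4 and 108 RPKM, and the 4 adipocyte markers to 178 to 185 and 266 to 268 RPKM. Of these lists 3, 4, 4 and 2 genes were called higher and none lower. The part of these shifts and of the shift in myofibre markers in the results below was not tested. Nf1 was 1.09 and 1.01 RPKM in Het and 0.89 and 0.85 RPKM in Nf1-KO. On log2(RPKM + 1), which understates changes at such low values, the log2 fold change was -0.18 (limma adjusted p 0.042). When 0.1 rather than 1 was added to each RPKM, Nf1 stood at -0.33 (limma adjusted p 0.046). For Nf1 the authors' deposited table held -0.38 (adjusted p 0.0026). The limma call was lost without scaling between libraries (-0.13, adjusted p 0.094) and with no filter on low values (adjusted p 0.082). It was also lost whichever library was left out (log2 fold change -0.21 to -0.15).

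Regulatory sequence was available in RefSeq (GRCm38.p6) for 5 of the 7 genes, as the 250 bases before to 50 after an annotated start. Neb and Myom2 had no entry. The windows of Ttn, Myom3 and Myom1 are shown because they held a match to a motif of a muscle transcription factor other than the common E-box. Capitals mark matches on either strand to the MEF2 site, the CArG box bound by SRF, and the M-CAT element (CATTCC).
Ttn (chr2:76982498-76982797, - strand): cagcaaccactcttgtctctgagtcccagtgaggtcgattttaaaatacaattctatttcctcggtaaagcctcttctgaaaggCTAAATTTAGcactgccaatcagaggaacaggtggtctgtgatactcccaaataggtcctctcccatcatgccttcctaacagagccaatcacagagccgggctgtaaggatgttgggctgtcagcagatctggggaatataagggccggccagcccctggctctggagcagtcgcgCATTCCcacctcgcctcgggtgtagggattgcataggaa
Myom3 (chr4:135759465-135759764, + strand): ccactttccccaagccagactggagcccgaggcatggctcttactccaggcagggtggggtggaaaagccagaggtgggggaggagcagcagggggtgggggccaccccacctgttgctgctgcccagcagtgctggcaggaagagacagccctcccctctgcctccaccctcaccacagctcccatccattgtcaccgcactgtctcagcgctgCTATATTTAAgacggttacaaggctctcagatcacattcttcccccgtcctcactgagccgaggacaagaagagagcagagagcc
Myom1 (chr17:71019307-71019606, + strand): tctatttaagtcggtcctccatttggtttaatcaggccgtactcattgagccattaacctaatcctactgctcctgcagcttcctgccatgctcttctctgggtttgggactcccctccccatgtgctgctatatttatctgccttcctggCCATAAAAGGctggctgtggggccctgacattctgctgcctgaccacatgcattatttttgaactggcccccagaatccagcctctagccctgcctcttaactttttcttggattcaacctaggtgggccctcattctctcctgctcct
Counting the start base as 0, the Ttn window held a MEF2 match, CTAAATTTAG, at -166 to -157 and an M-CAT match at 11 to 16. Myom3 held a MEF2 match, CTATATTTAA, at -35 to -26, and Myom1 a CArG match, CCATAAAAGG, at -99 to -90. Of 32851 windows of the same length, 3.19% held a MEF2 match, 1.63% a CArG match and 14.7% an M-CAT match. An E-box (CANNTG) was present in all 5 windows and in 72.3% of all windows, and the ERR half-site (AAGGTCA, in 4.72% of windows) in none of the 5. The Myom1 start used here lies inside the longer gene span of GENCODE, so other starts of this gene were not searched. A match describes letters only, not binding.

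In Nf1-KO muscle the myomesins Myom1 and Myom3 were higher, while Ttn, Neb, Myom2 and Cmya5 were lower. Tests were made with limma on log2(RPKM + 1), a scale that understates the change of low genes. Of the 7 genes, 6 had an adjusted p under 0.05, 2 higher and 4 lower, where 50.3% of all tested genes were called, 25.1% higher and 25.2% lower. Without scaling the split over all genes was 3760 higher and 1883 lower, in place of 2680 and 2697. The scaled values of the groups did not overlap in those 6 genes, as in 76.3% of all tested genes. Without scaling, 5 of the 7 were called (Cmya5 no longer), where 52.8% of all tested genes were. Against this background the count itself is not read as a result about these genes. In bulk muscle, fewer cells of a type and less RNA per cell cannot be told apart.

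**Figure D1:**
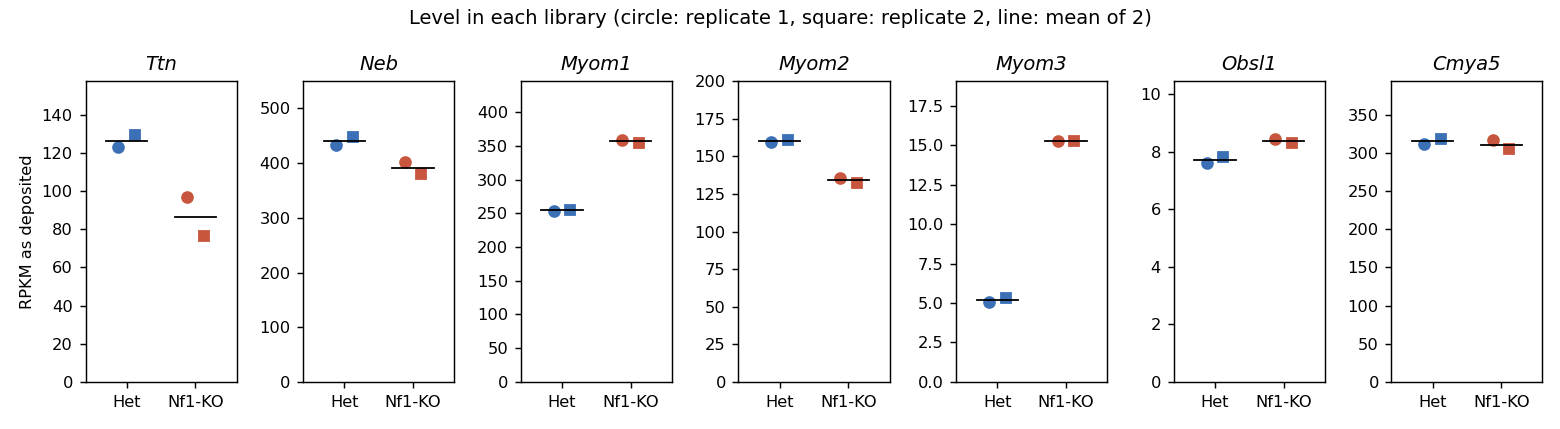
RPKM of each gene in each library (vertical axes start at 0; blue Het, red Nf1-KO; circles replicate 1, squares replicate 2, lines the mean of 2 libraries). Myom1, Myom3 and, by less, Obsl1 lay higher in both Nf1-KO libraries, but the groups of Obsl1 overlapped after scaling. The Nf1-KO libraries of Ttn lay farthest apart for their mean, at 96.6 and 76.2 RPKM.

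Per length, Neb was the most abundant of these RNAs, ranking 95 among the 10690 tested genes by mean scaled RPKM. In Het the order by mean RPKM was Neb, Cmya5, Myom1, Myom2, Ttn, Obsl1 and Myom3. In Nf1-KO it was Neb, Myom1, Cmya5, Myom2, Ttn, Myom3 and Obsl1, so Myom1 stood above Cmya5 and Myom3 above Obsl1. No 2 neighbours in either order overlapped between their libraries. The order and the shares of the myomesins depend on the gene lengths the authors used. The lengths that the authors' values imply were longer than the longest annotated transcript for Myom2 (8.31 against 5.08 kb), Obsl1 (7.17 against 5.68 kb) and Myom1 (6.82 against 5.65 kb).

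Ttn showed the largest fall of the 7 genes and the widest spread between its Nf1-KO libraries. This gene (ENSMUSG00000051747.14) lies on chromosome 2 from 76703980 to 76982547 (GRCm38), and its longest annotated transcript has 347 exons and 106824 bases. Its level was 122.91 and 129.34 RPKM in Het and 96.64 and 76.21 RPKM in Nf1-KO. Both Nf1-KO libraries were below both Het libraries, but they also differed from each other by more than the Het libraries did. The means were 126 ± 4.55 and 86.4 ± 14.4 RPKM (SD, n = 2), and the log2 fold change was -0.64 (SE 0.10, limma adjusted p 0.0026). Without Nf1-KO replicate 2 the log2 fold change was -0.47, and without Nf1-KO replicate 1 it was -0.81. The size of the fall thus moved by more than 1.5 times with the library used. The call remained, but such a fit holds no spread between Nf1-KO libraries, so this does not show that the call is firm. With both Nf1-KO libraries and no filter on low values, the limma adjusted p was 0.044. In the authors' deposited table Ttn stood at -0.65 (SE 0.18, adjusted p 0.0010).

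Between replicates the coefficient of variation of Ttn was 3.60% for Het and 16.7% for Nf1-KO. For 404 genes at or above 100 RPKM, the median was 1.03% in Het and 0.936% in Nf1-KO. Only Rn45s, a ribosomal RNA precursor and named here after its value was seen, was more variable than Ttn in Nf1-KO among those genes, at 18.1%.

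Neb fell less and more evenly. It lies on chromosome 2 from 52136647 to 52378474, and its longest annotated transcript has 157 exons and 22489 bases. It was 432.31 and 447.88 RPKM in Het and 402.74 and 379.39 RPKM in Nf1-KO, with both Nf1-KO libraries lower. The log2 fold change was -0.26 (SE 0.034, limma adjusted p 0.0011), and the authors' deposited table gave -0.28. Its coefficient of variation was 2.50% in Het and 4.22% in Nf1-KO, and 20 of the 404 abundant genes varied more in Nf1-KO. With values as deposited the log2 fold change was smaller, at -0.17 (limma adjusted p 0.0066).

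Within each library, which removes the scaling between libraries, Ttn was also lower against Neb in both Nf1-KO libraries. The ratio of Ttn to Neb RPKM was 0.284 and 0.289 in Het and 0.240 and 0.201 in Nf1-KO. The difference in log2 ratio was -0.38 with a pooled SD of 0.13 (2 libraries per group). It ran from -0.51 to -0.26 as each library was left out. An exact two-sided permutation test of 2 libraries against 2 cannot give less than 0.333, the value reached by each of the 6 ratios examined, so these ratios are descriptions.

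Long genes as a class were more often lower than higher in Nf1-KO. Lengths from GENCODE M21 were found for 93.4% of the tested genes. Of 235 tested genes with a longest transcript of at least 10 kb, 21 (8.94%) were called higher and 89 (37.9%) lower in Nf1-KO, and 86 of the 89 were not among the 7 genes described here. Without scaling these were 39 higher (16.6%) and 71 lower (30.2%). Over all tested genes the shares were 25.1% higher and 25.2% lower, and without scaling 35.2% and 17.6%. Of 7720 genes under 5 kb, 2113 (27.4%) were higher and 1824 (23.6%) lower, and without scaling 2945 and 1244. At 5 RPKM or more, the median log2 fold change was -0.18 for the 68 longest, -0.096 for 708 genes of 5 to 10 kb and 0.015 for 3787 shorter genes. Without scaling it was -0.10 for the longest and 0.10 for those under 5 kb, beside 0.082 for all genes of at least 5 RPKM.

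The replicates of a group differed with length too. Nf1-KO replicate 2 was below replicate 1 in 52 of those 68 longest genes (76.5%), against 55.2% of all genes of at least 5 RPKM, with a median log2 ratio of -0.040 for the longest genes and -0.0076 for all. That log2 ratio was -0.35 for Ttn and -0.091 for Neb. In Het the median log2 ratio of replicate 2 to replicate 1 was 0.030 for the longest genes and -0.0028 for all. The part that length played in the falls of Ttn and Neb was not tested.

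**Figure D2:**
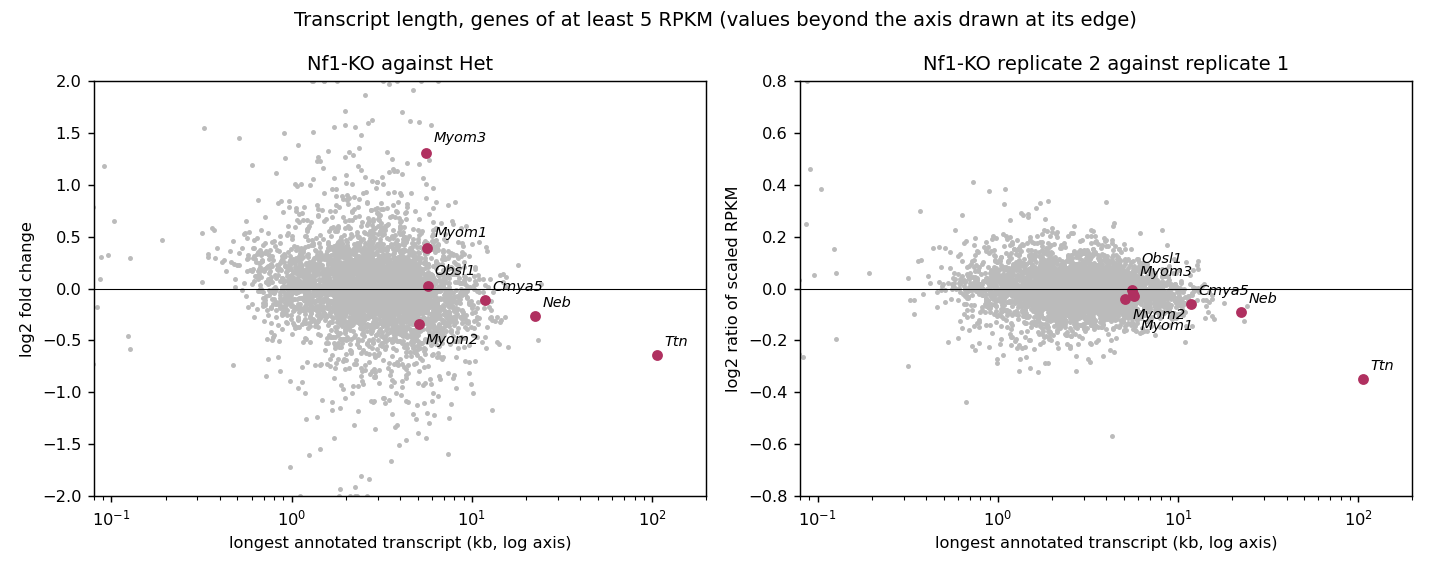
Longest annotated transcript (kb, log axis) against the log2 fold change between groups (left) and the log2 ratio of the 2 Nf1-KO libraries (right), for genes of at least 5 RPKM (grey) and the 7 sarcomere genes (red). Ttn, at 106.8 kb, stands alone at the right of both panels, at -0.64 between groups and -0.35 between replicates.

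The myomesin family differed in composition between the groups. Myom3 had the largest change of the 7 genes and rose from a low level. It lies on chromosome 4 from 135759715 to 135815564, and its longest transcript has 37 exons and 5575 bases. It was 5.06 and 5.35 RPKM in Het and 15.27 and 15.26 RPKM in Nf1-KO. Both Nf1-KO libraries were nearly the same and well above both Het libraries, with means of 5.21 ± 0.205 and 15.3 ± 0.0071 RPKM (SD, n = 2), a 2.93-fold difference as deposited. The log2 fold change was 1.31 (SE 0.041, limma adjusted p 2.6e-06). It was 1.44 with a pseudocount of 0.1 and 1.44 in the authors' deposited table.

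Myom1, the myomesin present in all striated muscle, rose from the highest level of the family. It lies on chromosome 17 from 71002633 to 71126856, and an exon overlaps the gene Myl12a on the other strand. It was 253.48 and 255.25 RPKM in Het and 358.87 and 354.98 RPKM in Nf1-KO. The groups were far apart compared with their replicates, whose coefficients of variation were 0.492% and 0.771%. The log2 fold change was 0.39 (SE 0.018, limma adjusted p 1.3e-05), beside 0.38 in the authors' deposited table.

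Myom2, the fast-fibre isoform, fell. It lies on chromosome 8 from 15057653 to 15133541. It was 159.29 and 160.81 RPKM in Het and 135.77 and 132.37 RPKM in Nf1-KO, with no overlap. The log2 fold change was -0.35 (SE 0.022, limma adjusted p 5.5e-05), beside -0.36 in the authors' deposited table.

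The 3 myomesins summed to 420 ± 2.53 RPKM in Het and 506 ± 5.16 RPKM in Nf1-KO as deposited (SD, n = 2). Of this sum Myom1 made up 60.7% and 60.6% in the Het libraries and 70.4% and 70.6% in the Nf1-KO libraries. The share of Myom2 went from 38.1% and 38.2% to 26.6% and 26.3%, and that of Myom3 from 1.21% and 1.27% to 2.99% and 3.04%. Myom3 was thus the smallest part of the family in every library. Within a library the log2 ratio of Myom2 to Myom1 differed by -0.74 between groups (pooled SD 0.011), that of Myom3 to Myom1 by 1.06 (0.036) and that of Myom3 to Myom2 by 1.81 (0.038). Each of these 3 differences was over 20 times the pooled SD between replicates.

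**Figure D3:**
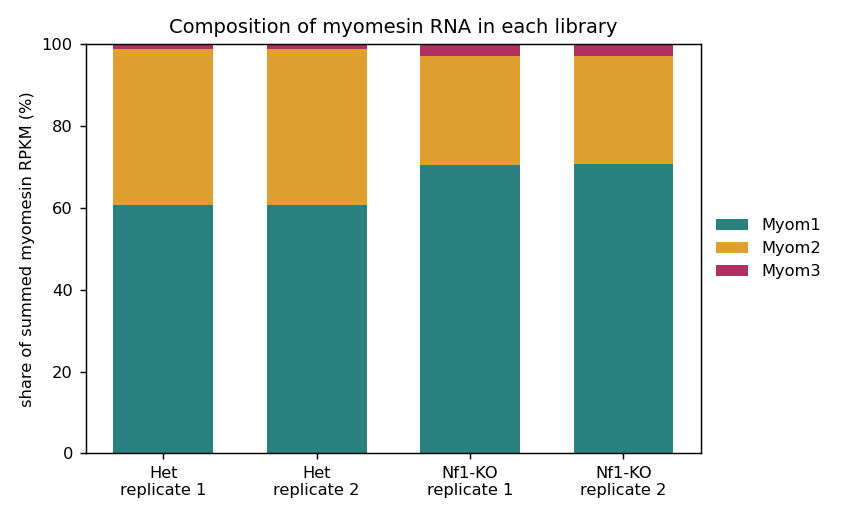
Share of each myomesin in the summed RPKM of the 3 genes (vertical axis in percent), one bar per library. The share of Myom2 is 38.1% and 38.2% in Het and 26.6% and 26.3% in Nf1-KO.

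Obsl1 did not pass the test. It lies on chromosome 1 from 75479310 to 75506452, with 20 exons in its longest transcript. It was 7.61 and 7.80 RPKM in Het and 8.43 and 8.30 RPKM in Nf1-KO, so the values as deposited were higher in both Nf1-KO libraries. Such values did not overlap between groups in 77.3% of all tested genes. After scaling the groups overlapped, and the log2 fold change was 0.023 (SE 0.039, limma adjusted p 0.65). Its sign turned to -0.011 when libraries were scaled without their 20 most abundant genes. The authors' deposited table gave 0.011 with an adjusted p of 0.92. Against Ttn, the Obsl1 to Ttn ratio was 0.0619 and 0.0603 in Het and 0.0872 and 0.109 in Nf1-KO.

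Cmya5 fell by little, and its call was not firm. It lies on chromosome 13 from 93040713 to 93144724, its longest transcript has 13 exons and 11850 bases, and its exons overlap A630019I02Rik and Gm4814 on the other strand. It was 311.84 and 318.46 RPKM in Het and 316.49 and 304.89 RPKM in Nf1-KO, and these values overlap. After scaling they no longer did, and the log2 fold change was -0.11 (SE 0.025, limma adjusted p 0.011). With values as deposited it was -0.021 and the adjusted p 0.50. The call was also lost without Het replicate 2 (adjusted p 0.069) and without Nf1-KO replicate 2 (0.053). The authors' deposited table gave -0.13 with an adjusted p of 3.7e-09.

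**Figure D4:**
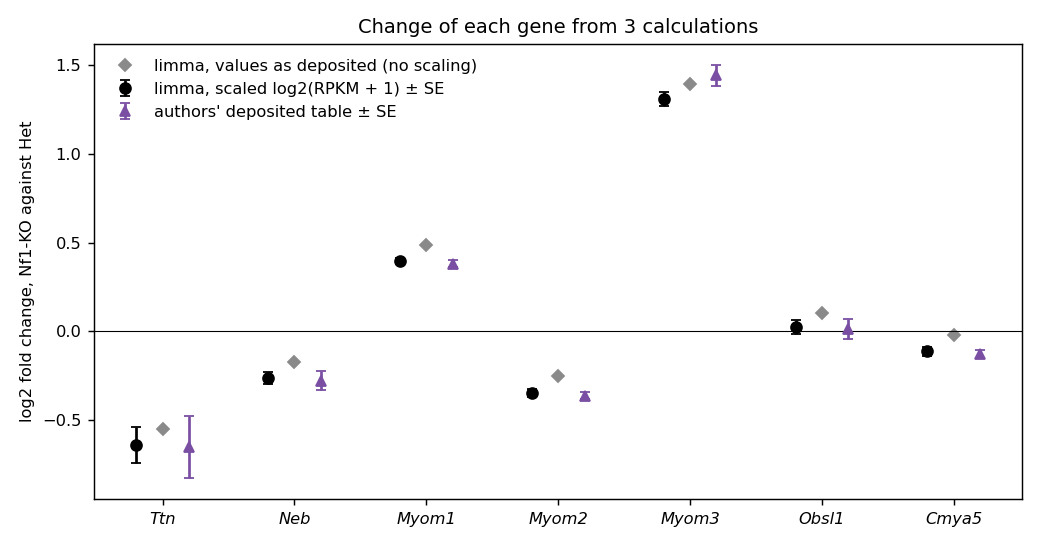
Log2 fold change of Nf1-KO against Het for each gene from limma on scaled values (black, with standard error), limma on values as deposited (grey) and the authors' deposited table (purple, with standard error). Myom3 stands highest at 1.31 and Ttn lowest at -0.64 by the first calculation, and Obsl1 and Cmya5 lie near 0 in all 3.

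The authors' deposited table called the same 6 genes in the same directions, in a table where 31.6% of its 13985 genes were called. It used the same libraries and is no independent measurement. An exon of Ttn overlaps Gm13938 and one of Neb overlaps Gm13522, both on the other strand, and no source used here says if counting was strand-aware.

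The genes around these proteins moved in both directions. Of 14 genes of the M-band and its neighbourhood, 3 were called higher and 6 lower (64.3% called), where 50.3% of all tested genes were called. The 3 higher included Fhl2, which passed the filter only through its Nf1-KO libraries. Without scaling 7 were higher and 4 lower, where 52.8% of all tested genes were called, 35.2% higher and 17.6% lower. Nothing particular to the list is read from these counts. The median log2 fold change of the 14 genes was -0.019, where the median of all tested genes was 0.0019. Ank1, whose small muscle form sits in the sarcoplasmic reticulum, went from 27.1 ± 0.226 to 20.1 ± 0.488 RPKM (SD, n = 2) and fell, with a log2 fold change of -0.50. Trim54, a muscle ring-finger protein, fell by 0.28 on the log2 scale. Alpk3, an atypical kinase of the M-band, rose from 53.8 ± 0.205 to 68.3 ± 0.629 RPKM (log2 fold change 0.25). Ckm, the muscle creatine kinase that docks at the M-band, had a log2 fold change of -0.17, and Speg, a striated muscle kinase, -0.13. The call of Speg was lost without scaling (-0.043, limma adjusted p 0.27), and also with no filter on low values (0.052), without Het replicate 2 (0.073) and without Nf1-KO replicate 2 (0.064).

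All 12 genes listed for titin passed the test, 5 higher and 7 lower (5 and 5 without scaling), with a median of -0.13. They were its partners in the I-band and Z-disc, and Rbm20. The share of all tested genes called was 50.3%, 25.1% higher and 25.2% lower. Without scaling 35.2% were higher and 17.6% lower. Nothing particular to the list is read from its count. Csrp3, the muscle LIM protein, fell most, from 32.43 and 32.29 RPKM in Het to 9.35 and 8.98 RPKM in Nf1-KO, a log2 fold change of -1.80 with a limma adjusted p of 4.4e-07. Flnc, the muscle filamin, fell by 0.56 on the log2 scale. Actn2, the alpha-actinin that anchors titin in the Z-disc, rose from 305 ± 4.05 to 518 ± 9.86 RPKM (log2 fold change 0.67). Rbm20, a splicing factor known for its action on Ttn RNA, had a log2 fold change of -0.27. These gene-level values do not resolve Ttn isoforms.

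Of 14 partners of nebulin and genes that set thin filament length, 13 could be tested, 6 were called higher and 5 lower (6 and 3 without scaling), and the median was 0.046. That is 84.6% of the list called, where 50.3% of all tested genes were. Without scaling 35.2% of all tested genes were higher and 17.6% lower. Nothing particular to this list is read from its count. Lmod2, a leiomodin that lengthens thin filaments, was 75.42 and 77.16 RPKM in Het and 196.34 and 199.22 RPKM in Nf1-KO, a log2 fold change of 1.27 with a limma adjusted p of 3.7e-07. Tmod1, which caps the pointed end, and Capza2, a subunit of the barbed-end cap, fell by 0.53 and 0.41 on the log2 scale. An exon of Tmod1 overlaps the gene Tstd2. Nebl, the nebulin relative known from heart, was below the filter at 0.01 to 0.06 RPKM.

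Of 8 partners of myospryn, 3 were higher and 4 lower (4 and 4 without scaling), with a median of -0.13. That is 87.5% of the list called, again beside 50.3% of all tested genes (35.2% higher and 17.6% lower without scaling). Here too nothing particular to the list is read from its count. Dtnbp1, which encodes dysbindin, rose from 20.6 ± 0.410 to 28.7 ± 0.134 RPKM (log2 fold change 0.37). Ppp3ca and Ppp3cb, catalytic subunits of the phosphatase calcineurin, fell by 0.55 and 0.51 on the log2 scale. Des, the desmin gene, had a log2 fold change of 0.18.

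**Figure D5:**
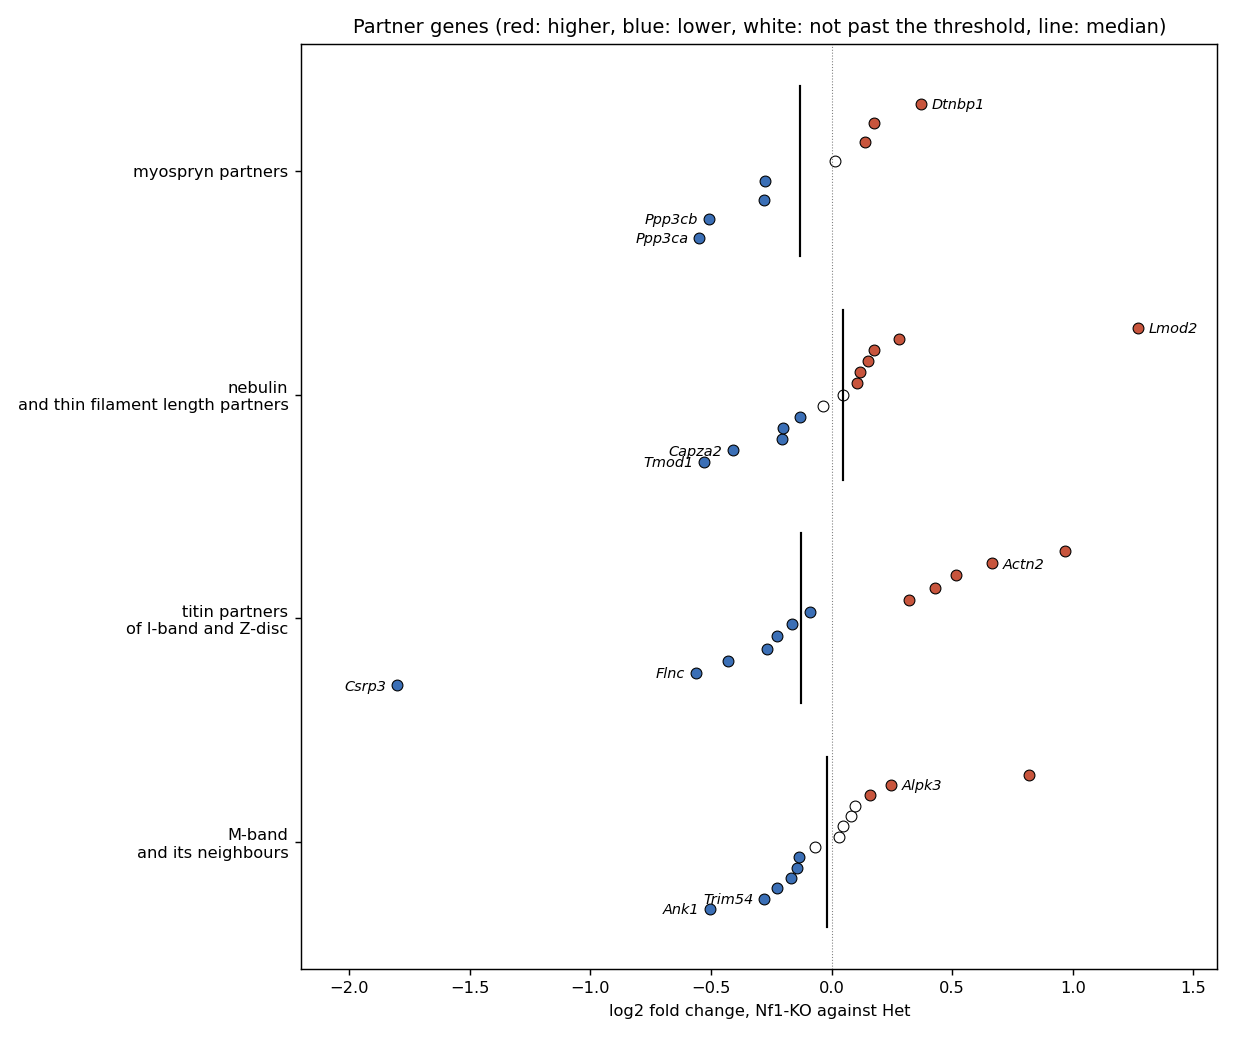
Log2 fold change of Nf1-KO against Het of each tested partner gene, by list (red higher, blue lower, white not past the threshold, black line the list's median). The medians lie between -0.13 and 0.046, and the largest changes are Csrp3 at -1.80 and Lmod2 at 1.27.

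By distance between centred log2 values over the 4 libraries, the genes most like Myom3 among 4825 others of at least 5 RPKM were Apod (distance 0.015), Lrg1 (0.044) and Lmod2 (0.047). The genes most like Ttn were farther off, Mir1839 (0.156), Acyp1 (0.161) and Col15a1 (0.162). With 4 libraries, such likeness rests mostly on the difference between the groups and, for Ttn, the gap between the Nf1-KO libraries.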

How the data were processed

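RNA of mouse tibialis anterior was sequenced in 2 Het and 2 Nf1-KO libraries made with an Illumina TruSeq v2 kit, per the labels' protocols. STAR 2.4.2a, DESeq2 and mouse build mm9 are named in the submitters' processing notes, while the counting program, annotation and strandedness are not given in the sources used here. The authors deposited 34682 values per library, whose unit is not named and was read from the values as RPKM. Their comparison table holds, per the file headers, a mean signal (counts divided by size factors), a log2 fold change, its standard error, a test score, and a p-value with its adjusted p-value. Its direction was read from the libraries' values.

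From these, 33 rows without a gene name were left out, and the copy with the highest mean was kept where a name had several, which left 32868 names. Depth, estimated from the steps of low values in short genes, came to 36500000 and 58100000 reads (Het replicates 1 and 2) and 47000000 and 51000000 reads (Nf1-KO replicates 1 and 2). Libraries were scaled by the mean log ratio to a reference library, leaving out the outer 30% by ratio and 5% by abundance at each end (factors 0.969, 0.968, 1.03 and 1.03). Genes reaching 0.5 RPKM in 2 or more libraries were tested on log2(RPKM + 1) by limma 3.58.1 (R 4.3.3), using a mean-variance trend and Benjamini-Hochberg adjustment over 10690 genes (threshold 0.05). The script was tested on simulated data with the same length, depth and small spread for all genes, which does not bear on the spread of Ttn. Without scaling, the median log2 fold change of all tested genes was 0.070 in place of 0.0019. Means and SD are of RPKM as deposited. Positions and lengths are from GENCODE M21 (GRCm38), matched by symbol, a build other than the authors' mm9. The genes and the lists were chosen with earlier results of these data known. Named partner genes were the up to 3 largest called changes per list at 5 RPKM or more, and a few others were named for their role after their values were seen. Lists were described by counts and medians, with no set test. The labels give no batch. No protein sequence was used here. The values of 1 neighbouring gene are not reported here.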

Additional observations from a re-analysis of the deposited data

How the results depend on the processing

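Ttn, Neb, Myom1, Myom2 and Myom3 kept their direction and call in all 15 alternatives. With no filter on low values, the limma adjusted p was 0.044 for Ttn, 0.024 for Neb and 0.00085 to 0.0030 for the myomesins. As each library was left out, which leaves a lone library assumed to vary like the other group, Ttn ran from -0.81 to -0.47. Cmya5 lost its call with no filter on low values and with no variance trend (-0.11 in both), without scaling (-0.021), without Het replicate 2 and without Nf1-KO replicate 2, and kept it when either of the other libraries was left out (-0.14 to -0.081 over all 4); its adjusted p ran from 0.0031 to 0.50 and the cause was not tested. Obsl1 turned to -0.011 when each library was rescaled to 1000000 without its 20 most abundant genes. That rescaling also raises every value against the pseudocount, so the same ratios with the overall level kept were added after seeing the data, and Obsl1 was then -0.0099. Without scaling, medians were 0.071 for M-band, -0.037 for titin, 0.12 for nebulin and -0.040 for myospryn partners, beside 0.070 for all tested genes. Without the 20 most abundant genes the medians were -0.057 for M-band and -0.17 for titin and myospryn partners, beside -0.032 for all tested genes. With the level kept they were -0.055, -0.16 and -0.17, beside -0.025 for all tested genes. The M-band median was -0.067 with at least 1 RPKM in every library, where fewer genes were tested, and the myospryn median -0.13 with median-ratio scaling. With each library left out, the medians ran from -0.10 to -0.012 (M-band), -0.14 to -0.11 (titin), 0.017 to 0.080 (nebulin) and -0.13 to -0.11 (myospryn), and 73 to 84 in place of 110 genes of at least 10 kb were called. Genes called over all were 5377, split into 2680 higher and 2697 lower, and without scaling 3760 higher and 1883 lower.

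Same-numbered libraries did not deviate together (correlation of -0.018 across genes), so the numbers were not taken as pairs. A replicate block gave 5373 called genes, and the 6 calls among the 7 genes remained (Cmya5 adjusted p 0.014), while Nf1 lost its call (-0.18, adjusted p 0.054).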

Other observations

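Among the partner genes, 2 of low level, named after their values were seen, changed more than most. Fhl2, a LIM protein that binds the M-band part of titin in heart, was 0.34 and 0.23 RPKM in Het and 1.17 and 1.49 RPKM in Nf1-KO. The log2 fold change of Fhl2 was 0.82, or 1.82 with a pseudocount of 0.1. Both Het values lay below the filter of 0.5 RPKM, so Fhl2 was tested only through its Nf1-KO libraries. Its limma adjusted p was 4.2e-04, or 0.012 with no filter on low values, and is not read as support. Ankrd1, a stretch-responsive ankyrin-repeat protein of the titin I-band, was 2.22 and 1.89 RPKM in Het and 5.07 and 5.45 RPKM in Nf1-KO, a log2 fold change of 0.97 (limma adjusted p 8.1e-05).

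The reads per RPKM in the authors' table imply a gene length. At the mean depth that 4554 genes give, it came to 109 kb for Ttn, 22.6 kb for Neb and 11.9 kb for Cmya5, near their longest annotated transcripts of 106.8, 22.5 and 11.9 kb. For Myom3 it was 5.51 kb against 5.58 kb. For Myom2 it was 8.31 kb against 5.08 kb, for Obsl1 7.17 kb against 5.68 kb and for Myom1 6.82 kb against 5.65 kb, so levels per length of these genes depend on the gene model used.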
